A study of Mus musculus with 37 samples.

Results

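Some genes of maturing mouse oocytes have an annotated transcript of higher relative abundance at metaphase II (MII) than at the germinal vesicle (GV) stage. Beside it, another transcript of the same gene has a lower relative abundance. The 8 genes described here, Akr1b3, Steap2, Emg1, Srpk1, Ruvbl2, Casp8, Ildr1 and Dgcr6, were chosen by that pattern between the GV and MII oocytes of batch A. They are 8 of the 29 genes that show it when transcripts of low count are not filtered out, among 54752 Ensembl genes in the deposited tables. Why these 8 of the 29 were taken is not given. They carry 59 of the 138835 annotated transcripts. Since the contrast of GV with MII chose the genes, its values are given as a description without a test. The contrast of GV with metaphase I (MI) in batch B did not define that pattern and is tested. Whether it had a part in taking these 8 of the 29 is not known.

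The series holds single-oocyte libraries, made with Smart-seq2, from C57BL/6 female mice. Batch A has 6 GV oocytes (GV_A) and 6 MII oocytes (MII_A), and batch B has 10 GV oocytes (GV_B) and 15 MI oocytes (MI_B). GV oocytes came from ovaries after PMSG, MII oocytes from the ampulla after hCG was also given, and MI oocytes were GV oocytes, freed of cumulus cells, that resumed meiosis in culture in M16. MII was sequenced in batch A and MI in batch B, so these stages cannot be compared within a batch. MII also differs from MI in having matured in the animal, and stage and place of maturation cannot be told apart. Each oocyte is a replicate, and the mouse that gave it is not labelled.

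A fully grown GV oocyte has stopped transcription, and until the embryo's genome is switched on its transcripts can be stored, translated, shortened or lengthened at the poly(A) tail, or degraded. Transcripts of a gene that end at different places carry different 3′ untranslated regions, where much of this control acts. A retained intron transcript is an annotated form that keeps intron sequence and is usually not translated.

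Several libraries stood apart. MII_A oocyte 1 had 29816 genes with at least 1 expected count, against 19574 as the lowest and 20599 as the median of the MII_A oocytes, and its summed blood and immune markers reached 12.7 CPM (a gene's counts scaled to the library's total) against a group median of 1.22 CPM. MI_B oocyte 15 had the lowest depth, 2709280 expected counts, and 12654 genes. MI_B oocytes 4, 8 and 9 had 1.13, 1.11 and 1.07 HTSeq counts per RSEM expected count in the median gene, whereas the MI_B median was 2.07. GV_A oocyte 1 had the lowest depth of its group, 7509875 expected counts, with 44663 spike-in counts against a group median of 99479. In the shares described below, GV_A oocyte 1 and, less often, MII_A oocyte 5 lay away from the rest of their groups. The counts of genes and transcripts called are also given without these oocytes.

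The labelled cell type matched its markers. All 10 oocyte markers were detected in each group, with Gdf9 the most abundant, and their summed mean was 15729 CPM in GV_A, 7537 in MII_A, 4873 in GV_B and 4107 in MI_B. The 12 cumulus and granulosa markers summed to a mean of 48.2, 36.6, 35.7 and 39.7 CPM in the same order, with Cyp19a1 the most abundant in GV_A, MII_A and GV_B and Nr5a2 in MI_B. Amhr2 was at 0 in GV_A, and Amh, Amhr2 and Foxl2 were at 0 in GV_B and MI_B. The 6 blood and immune markers had a summed mean of 0.869, 3.14 (median 1.22), 2.80 and 2.21 CPM, led by Cd68 in batch A and Hbb-bs in batch B, with Adgre1 and Cd3e at 0 in GV_A and MI_B and Adgre1 in GV_B. The part of other cells in the results below was not tested.

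The share of a transcript is its RSEM expected counts as a percent of those of all transcripts of its gene in the same oocyte, and it is not defined where the gene has under 10 expected counts. That happened once, for Dgcr6 in MI_B oocyte 15. A share does not depend on how libraries are scaled to each other. Levels and log2 changes do, and they are relative to the rest of the library unless spike-in factors are named. The counts behind it differ between genes, from a median of 169 for Casp8 to a median of 6091 for Srpk1 over the 37 oocytes. At a share of 50%, counting error alone gives a 95% binomial interval of 42.5 to 57.5% at the median Casp8 count, 43.7 to 56.3% at the median of 236 for Ildr1 and 48.7 to 51.3% at the median for Srpk1. In the oocyte with the fewest Casp8 counts, 16.0, the interval runs from 28.0 to 72.0%. These intervals cover counting error only. They leave out how RSEM divided reads between transcripts that share most of their bases, and reads without molecular identifiers are not independent molecules.

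In the fit that kept transcripts by count, 25 of the 59 transcripts could be examined between GV_A and MII_A, and 7 of the 8 genes had transcripts past an adjusted p of 0.05 and a fold of 2 in both directions. Steap2 was the exception, since its lower transcript was removed by the count filter. Of all 22461 transcripts fitted, 5.57% were past those thresholds, and 26 genes, 0.474% of the 5481 with at least 2 transcripts in the fit, had both directions. The choice of genes fixes these counts, so nothing is read from them beyond the settings under which the pattern is met. All 8 genes met it without the filter or with DESeq2, which gave 29 and 52 genes of this kind in the whole table. Some values lay close to the fold threshold, a log2 change of 1.00: inside it were Srpk1-203 at 1.18 and Srpk1-212 at -1.19, and outside it was Steap2-201 at 0.91. Without GV_A oocyte 1, 5 genes met the pattern, and Srpk1, Ildr1 and Steap2 did not. Without MII_A oocyte 1, or without MII_A oocyte 5, 7 met it, with Steap2 in place of Ildr1. In these 3 fits the log2 change of Ildr1-202 was -2.48, -2.65 and -2.23, against -2.43 with all oocytes. With spike-in size factors, which move the median log2 change of all genes from 0.01 to -0.72, it was met by 2 genes, Akr1b3 and Dgcr6. Gene-level log2 changes with these factors ran from -0.90 (SE 0.27, Casp8) to -2.19 (SE 0.24, Akr1b3), apart from Steap2 at 0.02 (SE 0.24).

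**Figure D1:**
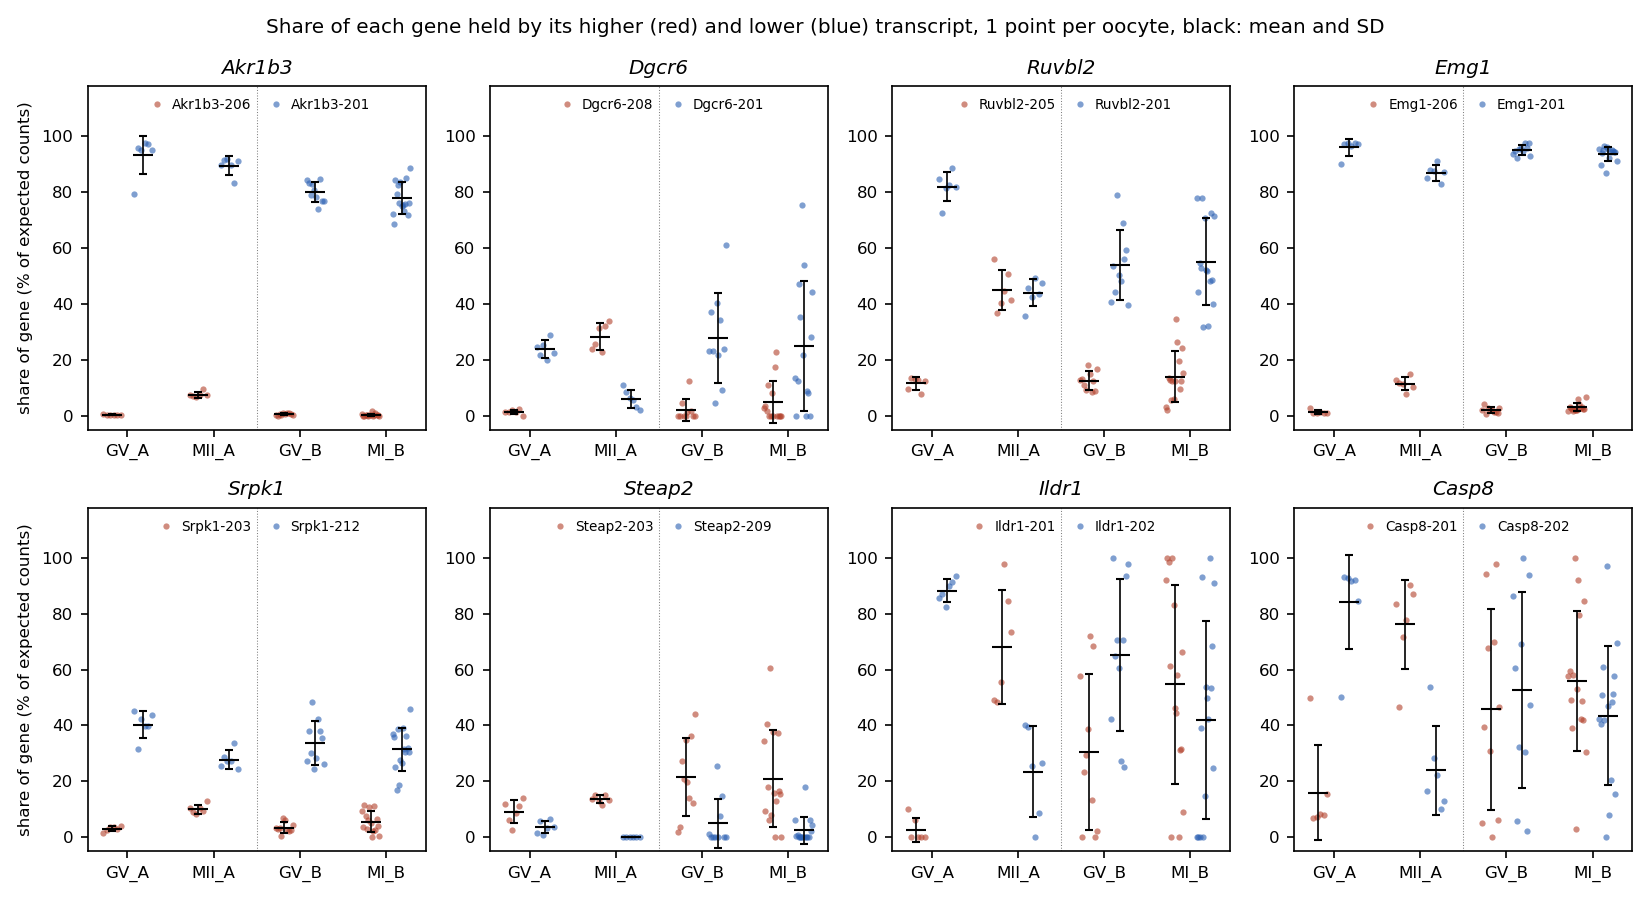
Share of each gene's expected counts (percent, vertical axis) held by the transcript higher in MII_A (red) and the transcript lower in MII_A (blue) in GV_A, MII_A, GV_B and MI_B, with 1 point per oocyte and black bars for mean and SD. The red and blue points of Ildr1 are apart in GV_A and spread from 0 to the whole gene in MI_B, while the red points of Akr1b3 are at or under 10% in each oocyte.

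Akr1b3 encodes aldose reductase, which reduces glucose to sorbitol. Its RSEM level was 409.8, 510.2 and 773 CPM as the lowest, median and highest of GV_A and 96.9, 171 and 250.4 CPM in MII_A, a log2 change of -1.49 (SE 0.21). The groups did not overlap. In both of them nearly the whole gene was the coding transcript Akr1b3-201, with shares of 79.5, 95.6 and 97.5% in GV_A and 83.2, 90.5 and 92.0% in MII_A. The fitted log2 change of its level was -1.58 (SE 0.24), and that of the retained intron transcript Akr1b3-204 was -3.00 (SE 0.49). The transcript of the opposite sign, at 3.38 (SE 0.38), was Akr1b3-206, a retained intron transcript that ends 1500 bases downstream of the other pair. It is annotated as 1 unspliced exon. Of its 4470 own bases, 1500 lie beyond that end and the rest in introns of Akr1b3-201. Which of these bases gave the counts was not tested. The share of Akr1b3-206 was 0.0906, 0.226 and 0.678% in GV_A and 6.76, 7.23 and 9.68% in MII_A. Each MII_A oocyte was above each GV_A oocyte, yet Akr1b3-206 remained a small part of the gene. In GV_A oocyte 1 the share of Akr1b3-204 was 19.6%, and without that oocyte the difference between the group means went from -3.93 to -1.26 percentage points for Akr1b3-204 and from -3.82 to -6.59 for Akr1b3-201. Counted per annotated kilobase, the difference for Akr1b3-201 had the opposite sign, 4.75 points, beside -7.61 for Akr1b3-204 and 2.04 for Akr1b3-206. The 3 other transcripts of the gene had mean shares of at most 0.400%.

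In batch B the estimated shares of the same gene were different already at the GV stage. Akr1b3-204 has 0 bases of its own and shares its end with Akr1b3-201. The division of reads between these 2 transcripts thus rests on RSEM's estimate. Their common end held means of 99.6% in GV_A and 98.6% in GV_B. Akr1b3-204 held 12.6, 18.3 and 24.9% in GV_B and 10.9, 22.4 and 28.3% in MI_B. These groups overlapped, and the lowest GV_B oocyte was above every GV_A oocyte other than oocyte 1. Akr1b3-206 had a highest share of 1.02% in GV_B and of 1.62% in MI_B, and it was at 0 counts in 1 of 10 and 5 of 15 oocytes. Its counts were too low for the filtered fit of GV_B against MI_B, and without the filter its log2 change was -0.64 (SE 0.93, adjusted p 0.787 by edgeR). The gene level was 61.2, 122 and 208 CPM in GV_B and 37.7, 113 and 208 CPM in MI_B, with a log2 change of -0.01 (SE 0.20, adjusted p 0.991 by edgeR).

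Steap2 encodes a metalloreductase that reduces iron and copper. With RSEM counts it was the only gene of the 8 with a positive fitted gene-level change from GV_A to MII_A, 0.75 (SE 0.12), which was 0.02 (SE 0.24) with spike-in size factors. Its levels were 70.1, 87.0 and 97.3 CPM in GV_A and 109, 117 and 141 CPM in MII_A, without overlap. The coding transcript Steap2-203 held 2.63, 9.89 and 13.9% of the gene in GV_A and 11.4, 13.4 and 15.2% in MII_A, with 2 MII_A oocytes above all of GV_A. The transcript of the other direction was Steap2-209, a coding transcript that ends 6107 bases downstream of Steap2-203. It had from 8.79 to 56.3 counts in the GV_A oocytes, a share of 0.861, 3.45 and 6.41%, and 0 counts in each of the 6 MII_A oocytes. It has only 8 bases of its own and shares its end with the coding Steap2-204. That end held means of 7.27% in GV_A and 3.14% in MII_A, with overlap, and how its reads divide between these transcripts cannot be told.

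Most of Steap2 was held by the coding Steap2-201, with mean shares of 37.7% in GV_A and 41.6% in MII_A, and by the processed transcript Steap2-207, with means of 44.5 and 41.1%. Those groups overlapped, and without GV_A oocyte 1 the differences for both of these transcripts changed sign, to -0.124 and 0.495 percentage points. In batch B Steap2-207 was at a median of 7.21% in GV_B and 0.953% in MI_B, with 7 of 15 MI_B oocytes at 0 counts, and 8 of 10 GV_B oocytes were below the lowest of GV_A. Steap2-209 was at 0 counts in 6 of 10 GV_B and 8 of 15 MI_B oocytes and reached 25.6 and 17.9% in the highest. Between GV_B and MI_B no transcript of Steap2 was called by level with edgeR or DESeq2, and the log2 change of Steap2-203 was -0.21 (SE 0.61, adjusted p 0.999).

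Emg1 encodes a methyltransferase that acts on the RNA of the small ribosomal subunit. Its level was 140.3, 169 and 278 CPM in GV_A and 40.7, 58.3 and 82.9 CPM in MII_A, a fitted log2 change of -1.41 (SE 0.21), and the groups did not overlap. The coding transcript Emg1-201 had shares of 89.9, 97.3 and 97.7% in GV_A and 83.0, 87.4 and 91.2% in MII_A. The retained intron transcript Emg1-206, which ends 296 bases downstream, had shares of 0.750, 1.06 and 2.77% in GV_A and 7.78, 11.3 and 14.9% in MII_A. It is also annotated as 1 unspliced exon. Of its 3228 own bases, 296 lie beyond the end of Emg1-201 and the rest in introns of Emg1-201. Which of these bases gave the counts was not tested. The lowest MII_A share of Emg1-206 was above the highest of GV_A, which belonged to GV_A oocyte 1. In counts, the medians of Emg1-206 were 19.2 and 80.7, while those of Emg1-201 were 1873 and 572. The fitted log2 changes were 1.77 (SE 0.37) and -1.57 (SE 0.22). Per annotated kilobase the difference in share of Emg1-206 was 2.63 points in place of 10.1, since this transcript is the longer of the pair. The last 296 bases of Emg1-206 lie on Lpcat3, a neighbouring gene that was too low to be tested, with a median of 0.805 CPM in GV_A and 0.734 CPM in MII_A.

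Emg1 had the smallest unadjusted p of the 8 genes between GV_B and MI_B. Its level was 73.0, 119 and 169 CPM in GV_B and 71.3, 163 and 363 CPM in MI_B, where 7 of 15 oocytes were above the highest GV_B oocyte and 1 was below the lowest. The log2 change was 0.74 (SE 0.20), with an adjusted p of 0.133 by edgeR. It did not pass. DESeq2 gave 0.74 (SE 0.21) with an adjusted p of 0.0447, below the fold of 2 that a call needs, and HTSeq counts in edgeR gave 0.85 (SE 0.21) with an adjusted p of 0.294. Emg1-206 had a log2 change of 1.44 (SE 0.43, adjusted p 0.357) and Emg1-201 one of 0.70 (SE 0.22, adjusted p 0.395), so both transcripts had the sign of the gene. The shares of Emg1-206 were 0.589, 2.07 and 4.01% in GV_B and 1.61, 2.46 and 6.77% in MI_B, with 2 MI_B oocytes above all of GV_B.

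Srpk1 encodes a kinase that phosphorylates SR splicing factors. Its ratio of HTSeq to RSEM counts was lower in each group, and varied more between groups, than that of the other 7 genes. HTSeq gave 0.79 counts per RSEM expected count in GV_A, 1.47 in MII_A, 0.90 in GV_B and 1.05 in MI_B, where Casp8, for example, had 2.03, 2.03, 2.17 and 1.97. From GV_A to MII_A the fitted gene-level change was -0.59 (SE 0.20) with RSEM and 0.38 (SE 0.15) with HTSeq, so its sign depends on the counting. What set the sources apart at this gene was not tested. The RSEM level was 556, 866 and 1426 CPM in GV_A and 403, 499.6 and 655 CPM in MII_A, with 4 MII_A oocytes below all of GV_A.

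The coding transcript Srpk1-204 held a median of 51.3% of Srpk1 in GV_A and 53.9% in MII_A, and 54.5 and 53.2% in GV_B and MI_B. The retained intron transcript Srpk1-212, which has the same 3′ end, held 31.4, 41.0 and 45.0% in GV_A and 24.2, 27.3 and 33.7% in MII_A. These ranges overlapped, with 5 of 6 MII_A oocytes below all of GV_A, and the fitted log2 change was -1.19 (SE 0.26), or -0.97 (SE 0.22) without GV_A oocyte 1. Srpk1-212 has 0 bases of its own, so its share rests on how RSEM divided reads. Another retained intron transcript, Srpk1-203, ends 7815 bases upstream and held 1.33, 3.24 and 3.81% in GV_A and 8.27, 9.74 and 12.8% in MII_A, without overlap. Srpk1-206, also of this type, had mean shares of 0.552 and 3.09%. The GV_A mean came from oocyte 2 alone, at 3.31%, with the other GV_A oocytes at 0. MII_A ran from 0.365 to 4.85%, so the groups overlapped. Per annotated kilobase the mean share of Srpk1-206 differed by more than that of Srpk1-203. In summed share, the 6 retained intron transcripts of the gene had medians of 44.7 and 40.7%. Per annotated kilobase the order was reversed, with the higher median in MII_A. The higher and the lower transcript of the pair were thus both retained intron forms. The mean share of the coding Srpk1-204 differed by 2.69 points, or by -4.25 points per annotated kilobase.

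In GV_B, oocyte 4 had 2691 CPM of Srpk1 with RSEM and 339.8 CPM with HTSeq, and the next highest RSEM value was 629 CPM. The gene-level log2 change from GV_B to MI_B was -0.55 (SE 0.25, p 0.0376, adjusted p 0.408 by edgeR) with this oocyte and 0.00 (SE 0.16, adjusted p 0.999) without it. HTSeq counts gave -0.00 (SE 0.12). DESeq2 gave 0.02 (SE 0.17), but its default replaces outlying counts in groups of this size. Whether it replaced the count of GV_B oocyte 4 was not examined. Usage, which compares a transcript's log2 change with that of its gene, also changed without this oocyte. Srpk1-203 had the only unadjusted p under 0.05 by usage among the 8 genes, with a log2 difference of 1.18 (SE 0.51, p 0.0222, adjusted p 1.000), and without GV_B oocyte 4 it was 0.56 (SE 0.45, p 0.222). Its shares were 0.278, 3.02 and 6.70% in GV_B and 0.201, 4.99 and 11.5% in MI_B, and the groups overlapped.

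Ruvbl2 encodes an AAA+ ATPase that works with Ruvbl1 in chromatin remodelling and in the assembly of large protein complexes. Its level was 87.6, 113 and 138 CPM in GV_A and 65.2, 73.2 and 77.3 CPM in MII_A, without overlap and with a fitted log2 change of -0.42 (SE 0.15). The coding transcript Ruvbl2-201 held 72.6, 82.2 and 88.8% in GV_A and 35.5, 44.7 and 49.4% in MII_A. Ruvbl2-205 held 7.81, 12.6 and 13.5% in GV_A and 36.7, 43.1 and 56.2% in MII_A. Neither pair of ranges overlapped, and in 2 of 6 MII_A oocytes Ruvbl2-205 had more counts than Ruvbl2-201. The fitted log2 changes were -1.34 (SE 0.16) and 1.53 (SE 0.27). Both transcripts encode 463 codons, and Ruvbl2-205 differs by other first exons and by an end 138 bases downstream. Its own sequence overlaps that of 2 neighbouring genes, Gys1 and Lhb, whose log2 changes from GV_A to MII_A were 0.18 (SE 0.21, adjusted p 0.583) and -0.21 (SE 0.34, adjusted p 0.695) by edgeR.

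In batch B the share of Ruvbl2-205 had a median of 12.6% in GV_B, with 8.47% as the lowest, and was 2.11, 12.5 and 34.7% in MI_B. The medians nearly coincided, and the MI_B oocytes were spread more widely, with 4 of 15 above and 4 below the range of GV_B. Another coding transcript, Ruvbl2-208, which ends further upstream, held a median of 31.9% in GV_B and 31.3% in MI_B, and of 3.79% in GV_A and 9.29% in MII_A. At the GV stage 9 of 10 oocytes of batch B were above the highest of batch A for this transcript. The log2 change of Ruvbl2-205 from GV_B to MI_B was 0.32 (SE 0.35, adjusted p 0.989 by edgeR), and that of the gene was 0.16 (SE 0.11, adjusted p 0.633).

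Casp8 encodes the initiator caspase of the death receptor pathway. Its level was 15.6, 21.3 and 30.7 CPM in GV_A and 9.23, 17.2 and 21.8 CPM in MII_A, and the groups overlapped. Its counts were divided almost wholly between 2 coding transcripts of 480 codons each, which differ in their first exon and in the last 495 bases of Casp8-201. Casp8-201 held 7.00, 8.09 and 49.8% in GV_A and 46.4, 80.8 and 90.1% in MII_A. The 49.8% belonged to GV_A oocyte 1, the next highest GV_A oocyte was at 15.3%, and 5 of 6 MII_A oocytes were above all of GV_A. The fitted log2 change was 2.20 (SE 0.43) for Casp8-201 and -1.99 (SE 0.47) for Casp8-202, and 2.79 (SE 0.29) and -2.14 (SE 0.47) without GV_A oocyte 1.

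In batch B Casp8-201 ranged from 0 to 97.8% in GV_B, with a median of 43.1%, and from 2.98% to the whole of the gene in MI_B, with a median of 52.9%. In GV_B 3 of 10 oocytes were at or under 10% and 2 at or over 90%, and in MI_B 1 of 15 was at or under 10% and 2 were at or over 90%. The log2 change of Casp8-201 was 0.54 (SE 0.60, adjusted p 0.989 by edgeR) and that of the gene 0.26 (SE 0.31, adjusted p 0.830).

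Ildr1 encodes angulin-2, a protein of tricellular junctions. Ildr1-201 was at 0, 0 and 9.98% in GV_A, with 4 of 6 oocytes at 0 counts, and at 48.4, 64.5 and 97.7% in MII_A. Ildr1-202 was at 82.3, 88.4 and 93.6% in GV_A and from 0.0141 to 40.2% in MII_A, with a mean of 23.4%. No oocyte of either stage overlapped with the other for these transcripts. Both are coding, with ends 57 bases apart and lengths of 3042 and 2850 bases, and Ildr1-201 has 8 exons against 7. Among all transcripts of the gene, 60 bases occur in Ildr1-201 alone and 0 in Ildr1-202 alone. The fitted log2 changes were 4.15 (SE 1.06) and -2.43 (SE 0.67). The gene itself was at 31.4, 33.1 and 46.4 CPM in GV_A and 13.3, 20.4 and 26.9 CPM in MII_A, also without overlap.

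Among the differences between GV_B and MI_B, that of Ildr1 was the largest in points. Ildr1-201 held 0, 26.3 and 72.0% in GV_B and from 0% to the whole of the gene in MI_B, with a median of 57.9%, and 5 of 15 MI_B oocytes were above all of GV_B. The groups overlapped, since 3 MI_B oocytes were at or under 10%, as were 3 GV_B oocytes. Tested as an end, Ildr1-201 differed by 24.3 points (p 0.0719, adjusted p 0.712 by limma). Without MI_B oocyte 15 the difference was 27.5 points (p 0.0471, adjusted p 0.641), and without the MI_B oocytes 4, 8 and 9 no end had an unadjusted p under 0.05. The level of Ildr1-201 had a log2 change of 0.78 (SE 0.79, adjusted p 0.980 by edgeR).

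Dgcr6 is named after the DiGeorge syndrome region, in which the human gene lies. Its level was 20.2, 40.7 and 51.5 CPM in GV_A and from 23.4 to 34.6 CPM in MII_A, with a mean of 27.1 CPM and with overlap. Dgcr6-206 was the most abundant transcript of these groups, with median shares of 70.0 and 63.9%, and without GV_A oocyte 1 its mean differed by -9.67 points in place of -3.51, while per annotated kilobase the difference was 2.10. The pair that chose the gene was Dgcr6-201, with a median of 23.5% and a highest value of 29.0% in GV_A against 1.91, 5.92 and 10.8% in MII_A, and Dgcr6-208, at 0, 1.32 and 2.21% in GV_A and 22.8, 28.6 and 33.8% in MII_A. Neither range overlapped between the stages. The fitted log2 changes were -2.21 (SE 0.46) and 4.02 (SE 0.60). Dgcr6-208 ends 274 bases downstream of Dgcr6-201 and has an annotated coding sequence of 233 codons against 201. Dgcr6-201 and Dgcr6-206 have 0 bases of their own, so the division of reads between them rests on RSEM's estimate. The end they share with other transcripts, 5 in total, held means of 98.5% in GV_A and 71.5% in MII_A, without overlap.

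In batch B the shares of Dgcr6-208 were 0, 0 and 12.5% in GV_B and 0, 0.752 and 22.9% in MI_B, and it was at 0 counts in 6 of 10 and 8 of 15 oocytes. The groups overlapped. Dgcr6-201 ranged from 4.34 to 61.0% in GV_B and from 0 to 75.3% in MI_B. The coding forms Dgcr6-202 and Dgcr6-207 had medians of 0 and 2.00% in GV_A, where oocyte 1 was the highest for both, and medians of 7.27 and 12.6% in GV_B. Without the filter, Dgcr6-208 had a log2 change of 0.52 (SE 1.19, adjusted p 0.888 by edgeR) from GV_B to MI_B.

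Over the 8 genes, 26 of the 59 transcripts were kept in the fit of GV_B against MI_B, and 0 were called by level with edgeR. Of these 26, 5 (19.2%) had an unadjusted p under 0.05, all of them transcripts of Emg1 or Srpk1. The background was also 0% of 22717 transcripts, of which 1615 (7.11%) had an unadjusted p under 0.05. Without GV_B oocyte 4 it was 3 of 29 (10.3%), against 5.78% of all. DESeq2 fitted 57 transcripts of these genes and called 0, against 0.214% of all 87788 fitted. Of those 57, 3 had an unadjusted p under 0.05, against 4.24% of all. By usage edgeR called 0 of the 26, against 0.0242% of all 16502 transcripts tested, with 1 at an unadjusted p under 0.05 against 2.15% of all. A test of shares with limma called 0 of 31, with 0 at an unadjusted p under 0.05, where 0.00352% of all 28378 transcripts were called and 6.36% had such a p. Without the count filter usage called 1 of 57, Srpk1-210, with a log2 difference of 4.96 (SE 1.14) and an adjusted p of 0.0103, where 0.443% of all 69745 transcripts were called. It had counts in 5 of 15 MI_B oocytes and 1 of 10 GV_B oocytes, and its highest shares were 4.45% in MI_B oocyte 4 and 4.11% in MI_B oocyte 6. Without the MI_B oocytes 4, 8 and 9 the difference was 4.10 (SE 1.26, adjusted p 0.148) and not a call. As whole genes, 0 of 8 were called by edgeR, against 0.121% of 12419 genes, with 2 at an unadjusted p under 0.05 against 11.0% of all. DESeq2 and HTSeq counts each called 0 with 1 at an unadjusted p under 0.05. Over all genes they called 0.536% and 0%, and 7.09 and 7.45% had such a p. An adjusted p over the threshold does not show that the shares were alike in GV_B and MI_B, and the standard errors of Ildr1, Casp8 and Dgcr6 transcripts, from 0.57 to 0.96 on the log2 scale for those tested, are wide. When tried on simulated data the usage test missed most of the changed transcripts and also called others, so both 0 calls and a single call by usage are weak evidence. Whether the change from GV to MI differs from that from GV to MII was not tested.

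Transcripts that end within 50 bases of each other on the gene's strand were added up, because reads of a shared last exon cannot be divided between them. The 59 transcripts had 43 such ends, of which 21 were tested in each batch. Between GV_B and MI_B, limma on the arcsine square root of the end's share called 0 of 21, against 0.00489% of all 20448 ends, with 0 at an unadjusted p under 0.05 against 7.24% of all. These 21 ends belong to 7 of the 8 genes, and none to Akr1b3. In GV_A and MII_A the most distal end of Srpk1, used by Srpk1-204 and Srpk1-212, held 84.8, 92.4 and 95.0% and 78.0, 81.2 and 87.4%. In 6 of the 7 genes with a pair in the filtered fit, all but Srpk1, the higher transcript was the one that ends downstream. Of the 19 other genes in the table with both directions, 13 had this order, and without the filter it was 6 of 8 of these genes and 16 of 21 others. The choice of genes rests on the same contrast, so nothing is read from these counts. In genes with at least 2 annotated transcripts, the most distal end was held by 59.8% of 239 transcripts past the thresholds and higher at MII and 59.2% of 822 lower ones, beside 59.7% of all 20189 tested. Retained intron transcripts made up 20.1% of the higher ones, 6.93% of the lower ones and 8.07% of those tested. Of the 8 higher transcripts shown here, those of Akr1b3, Emg1 and Srpk1 are of this type, as are the lower Akr1b3-204 and Srpk1-212.

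**Figure D2:**
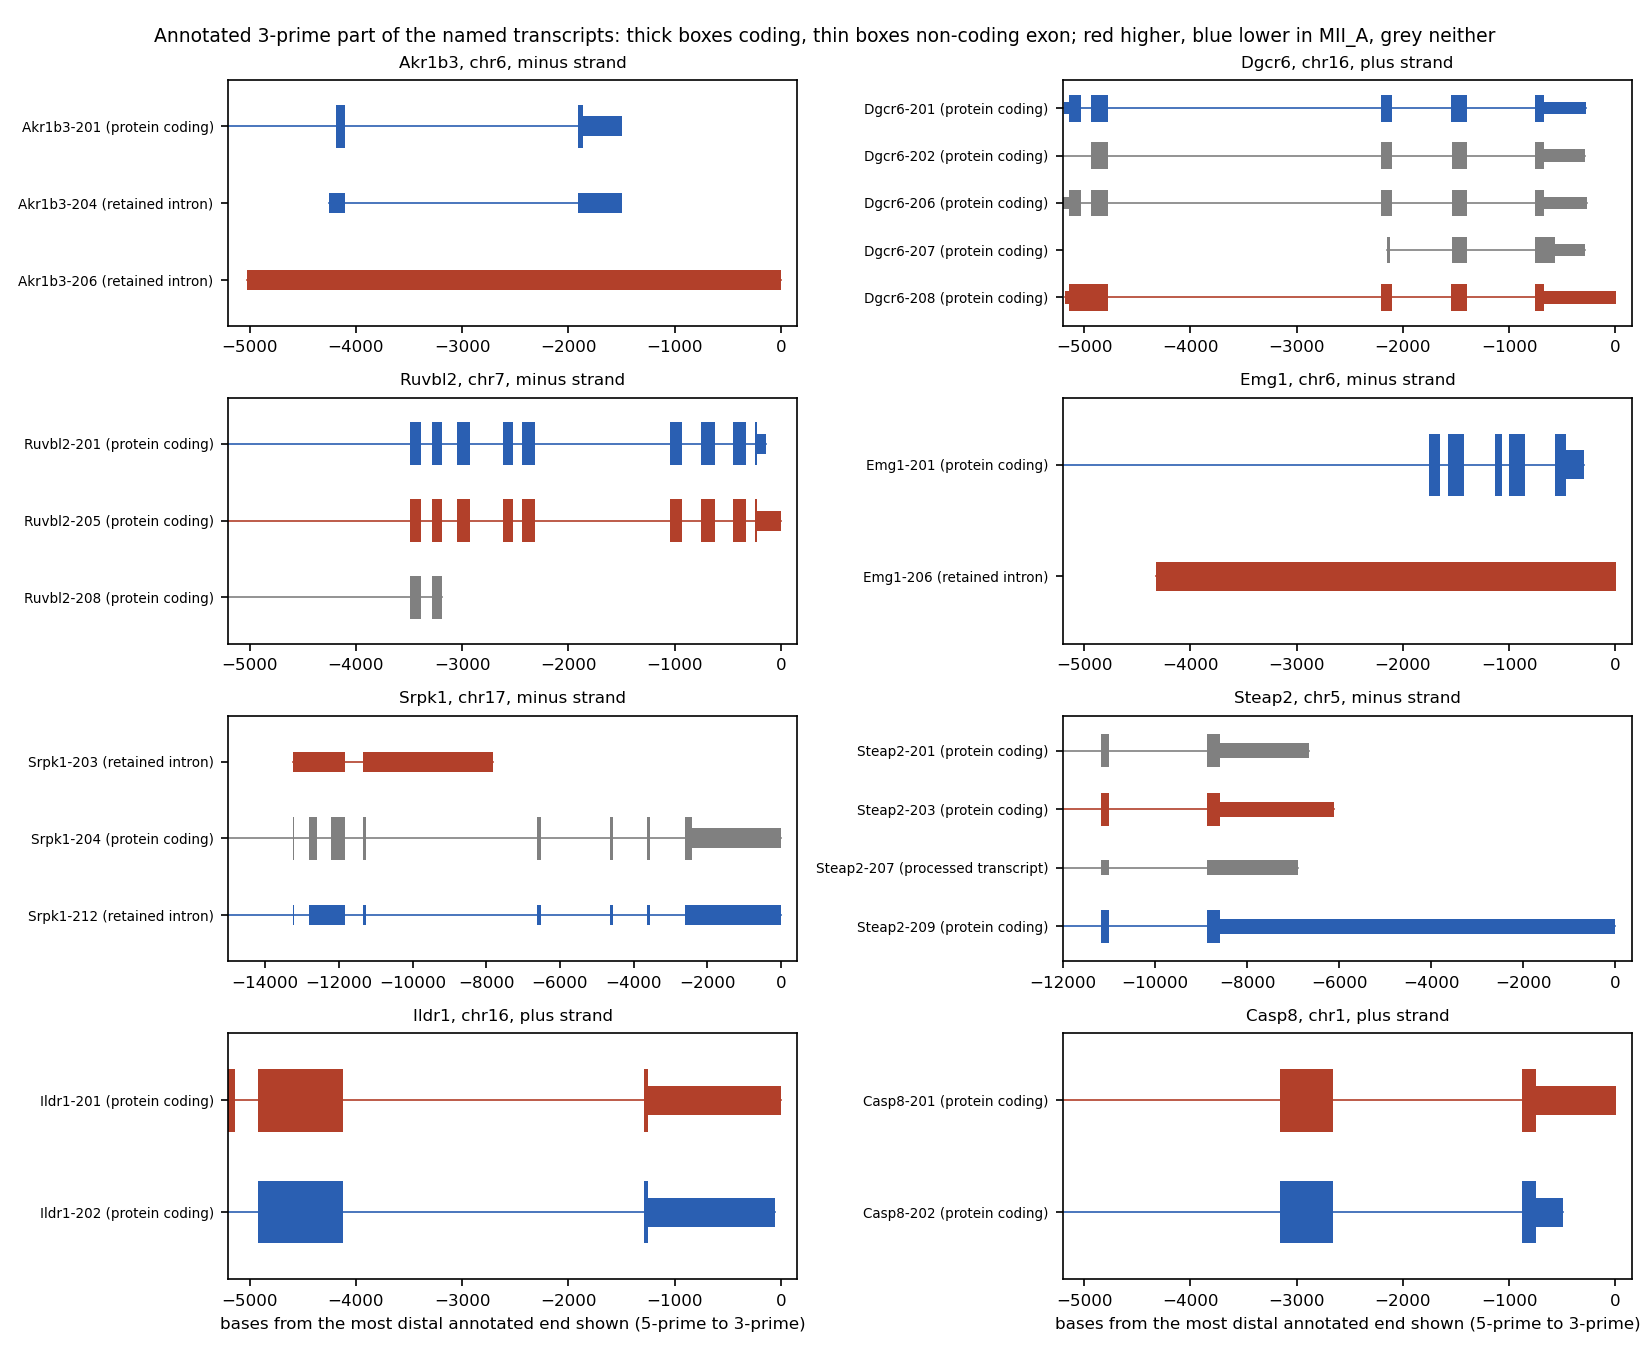
Annotated exons of the named transcripts near the 3′ end of each gene, drawn to scale from 5′ to 3′ with the distance in bases from the most distal end shown (horizontal axis, scale set for each gene). Thick boxes are coding and thin boxes non-coding exon sequence, red transcripts were higher and blue ones lower in MII_A, and the red transcript extends beyond the blue one except in Srpk1 and Steap2.

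The annotated ends were searched for the poly(A) signal hexamers AATAAA and ATTAAA in the last 40 bases on the transcript's strand, with GENCODE transcript sequences of GRCm38. Either was present in 32.7% of all transcripts, 48.8% of coding and 21.4% of retained intron transcripts. The following 30-base stretches show ends at which higher and lower transcripts of a gene differ, with the hexamer in capitals. Akr1b3-201 and Akr1b3-204 share theirs, and no hexamer was found at the end of Akr1b3-206.
Akr1b3-201: ctccttgcctcaAATAAAaactgcttttgt
Dgcr6-201: gatggcctagaaAATAAAgaacccaggaca
Dgcr6-208: tctggaatgtagAATAAAagtatggatgtc
Casp8-201: ggtaataataatATTAAActtttttctgtg
Srpk1-212: caaatgcagatcAATAAAcagagtatttaa
Ildr1-202: tttttctccataATTAAAagtgaaaaaaaa
Steap2-203: tttcgtttttagAATAAAtgtaatatagtc
Steap2-209: cctactaatgaataaAATAAAtgctatcgt
In Dgcr6 and Steap2 both members of the pair had a hexamer of their own. In Casp8 it was found at the downstream end, that of Casp8-201, and not in Casp8-202. In Ildr1 it was at the upstream end, that of Ildr1-202, and not in Ildr1-201. In Srpk1 it was at the shared end of Srpk1-212 and Srpk1-204. The last 40 bases of Emg1-201, Emg1-206, Ruvbl2-201, Ruvbl2-205 and Srpk1-203 held neither sequence. These libraries do not locate ends by themselves, so all ends named here are annotated ones.

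Relatives and working partners of the 8 genes were taken from a list of 45. Of these, 36 were tested by level between GV_A and MII_A, where 8.47% of all 12929 genes were called. Rps19, a protein of the small ribosomal subunit whose assembly also needs Emg1, was the 1 partner called. Its level was 26.2, 36.8 and 59.9 CPM in GV_A and 1.11, 3.31 and 7.25 CPM in MII_A, lower in 6 of 6 oocytes, with a log2 change of -3.21 (SE 0.32, adjusted p 1.05e-05 by edgeR). From GV_B to MI_B its log2 change was -0.38 (SE 0.26, adjusted p 0.639), which was not a call. With spike-in size factors 13 of the 36 partners were called, all lower, where 30.3% of all genes were called. That scaling gave an unadjusted p under 0.05 to 58.3% of the partners and to 53.2% of all genes, so nothing is read from the 13. By usage 0 of 18 partner genes were called by edgeR, against 0.937% of all 15586 transcripts, with 1 of 53 transcripts at an unadjusted p under 0.05 against 5.38% of all. Between GV_B and MI_B edgeR called 0 of 33 partners by level, with 5 at an unadjusted p under 0.05, and DESeq2 called 0 of 43 with 7. Over all genes, 11.0% had such a p by edgeR and 7.09% by DESeq2. By usage edgeR called 0 of 17 partner genes, with 0 of 51 transcripts at an unadjusted p under 0.05. Limma on shares called 0 of 86 transcripts with 8 at such a p, against 6.36% of all transcripts.

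The batches differed at the same stage for some transcripts. From GV_A to GV_B the median share of Ruvbl2-208 went from 3.79 to 31.9%, of Ildr1-201 from 0 to 26.3%, of Casp8-201 from 8.09 to 43.1% and of Steap2-207 from 46.0 to 7.21%. Steap2-207 has 0 bases of its own, so its share rests on how RSEM divided reads. For other transcripts the mean shares of GV_A and GV_B differed less than those of GV_B and MI_B, by 1.06 against 1.42 points for Ruvbl2-205, 0.724 against 1.02 for Emg1-206 and 0.377 against 2.17 for Srpk1-203. The same was true of Dgcr6-208, at 2.84 points from GV_B to MI_B. Batch and stage cannot be told apart for MI against MII.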

How the data were processed

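The authors trimmed reads with Trim Galore 0.6.4, aligned them to mm10 with STAR 2.7.6a and deposited counts per gene from HTSeq 0.12.4. A further deposited unit is expected counts from RSEM 1.3.1, for genes and for transcripts. Strandedness and the overlap mode are not given in the sources used here. Depth ran from 2709280 to 19390128 expected counts per oocyte. Expected counts were rounded for the tests. Transcripts were matched by Ensembl identifier to GENCODE M21 (GRCm38), which gave type and 3′ end.

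Within each batch, edgeR 4.0.16 (R 4.3.3) fitted levels by quasi-likelihood with TMM and filterByExpr by stage, and usage with diffSpliceDGE, which compares a transcript's log2 change with that of its gene. Ends were tested with limma 3.58.1 where the share was defined in at least 80% of the oocytes of each stage and averaged at least 1%. P-values of edgeR and limma were adjusted over all features tested. DESeq2 was run with its default filter, which leaves features of low count out of the adjustment. Its counts and percents here are of all features with at least 1 count. A call by level needed an adjusted p under 0.05 and a fold over 2, and a call by usage or share the adjusted p alone. The SE is the absolute log2 change divided by the square root of the F statistic.

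All 8 genes are named, with each transcript called by level between GV_A and MII_A with or without the filter or with a mean share of at least 10% in a group, and partners that were called. Srpk1-206 and Srpk1-210 were named after their values were seen. Genes and lists were chosen with earlier results of these data known. Alternatives were no filter, RLE, DESeq2 1.42.0, no fold threshold, HTSeq counts, spike-in factors, other end windows and gene count minimums, a replicate block, shares per kilobase, and fits without MII_A oocyte 1, MI_B oocyte 15 or MI_B oocytes 4, 8 and 9. Fits without GV_A oocyte 1, MII_A oocyte 5 or GV_B oocyte 4, the HTSeq fits of batch A and without the MI_B oocytes 4, 8 and 9, the unfiltered fit without those oocytes, and shares without single oocytes were added after seeing the data. Figures were drawn with matplotlib 3.10.9.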

Additional observations from a re-analysis of the deposited data

Results flagged for a closer look

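Shares of the named transcripts were examined for an oocyte far from the others of its group. Of 71 groups of shares, 16 (22.5%) held such an oocyte, where the rule's nominal rate by chance is about 1 in 20 groups. Whether that rate holds for shares was not tested. The shares of a gene's transcripts add up, so these groups are not independent of each other.

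In GV_A oocyte 1, the oocyte of lowest depth in its group, the share was 79.5% for Akr1b3-201 (next 95.0%), 19.6% for Akr1b3-204 (next 4.61%) and 0.678% for Akr1b3-206 (next 0.285%). In the same oocyte it was 16.0% for Dgcr6-202, 35.5% for Dgcr6-206 and 22.1% for Dgcr6-207, with 2.47, 66.1 and 5.53% as the nearest values. Emg1-201 stood at 89.9% there (next 96.6%) and Emg1-206 at 2.77% (next 1.16%), and Casp8-201 at 49.8% and Casp8-202 at 50.2% (next 15.3 and 84.7%).

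MII_A oocyte 5 had 83.2% of Akr1b3-201, 6.15% of Akr1b3-204, 9.68% of Akr1b3-206 and 8.27% of Dgcr6-202, with 89.6, 2.24, 7.36 and 0% as the nearest values. GV_B oocyte 7 had 12.5% of Dgcr6-208 (next 4.38%), and GV_A oocyte 2 had 13.2% of Ruvbl2-208 (next 4.71%). The reasons for these values were not tested.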

How the results depend on the processing

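The counts of called transcripts, genes and ends between GV_B and MI_B were 0 under each alternative run, except that usage without the count filter called 1 transcript, Srpk1-210. It had counts in 5 MI_B oocytes and 1 GV_B oocyte, and with MI_B oocytes 4, 8 and 9 also left out usage called 0. Without the filter 57 transcripts of these genes were tested in place of 26.

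The number of the 8 genes with both directions between GV_A and MII_A was 7, and 5 to 8 with no filter, no fold threshold, RLE, DESeq2 or without MII_A oocyte 1, MII_A oocyte 5 or GV_A oocyte 1. It was 2 with spike-in size factors. The log2 changes of 2 of 21 named transcripts turned sign with them, Ruvbl2-208 to -0.06 and Steap2-207 to -0.20, and neither had been past the thresholds. Partners called by level were 13 with spike-in size factors in place of 1, and calls over all genes were 30.3% in place of 8.47%. The cause was not tested.

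With a replicate block, which treats equal oocyte numbers as paired, the number of genes with both directions was 2. The numbers do not pair the oocytes: same-numbered oocytes had correlations of their deviations from -0.185 to 0.129 in batch A and from -0.098 to 0.083 in batch B.

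Per annotated kilobase the difference in share of Akr1b3-201 from GV_A to MII_A was 4.75 points in place of -3.82, that of Srpk1-204 -4.25 in place of 2.69 and that of Dgcr6-206 2.10 in place of -3.51. In that contrast 10 of 24 named transcripts, with Akr1b3-201 and Srpk1-204 among them, moved by more than 1 SD and 14 did not. From GV_B to MI_B all 24 stayed within 1 SD, also without MI_B oocyte 15, GV_B oocyte 4 or MI_B oocytes 4, 8 and 9, although 1, 3 and 3 small differences turned sign.

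Depth limits Casp8, Ildr1 and Dgcr6 most, with medians of 169, 236 and 222 expected counts per oocyte. A transcript at 0 counts in an oocyte was not detected at this depth.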
